A study of Caenorhabditis elegans with 24 samples.

Results

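The genes described here fold proteins in the endoplasmic reticulum (ER) and in mitochondria of *C. elegans*. They were chosen by name, though with earlier results of these data known, as were the gene lists used below. They are 9 of the 45461 genes in the deposited table. Of the 9, 6 encode ER chaperones or folding enzymes (*hsp-3*, C15H9.6, *hsp-4*, F43E2.8, *enpl-1*, T05E11.3, *crt-1*, Y38A10A.5, *pdi-1*, C14B1.1, and *pdi-2*, C07A12.4), 1 encodes the transcription factor of the ER stress response (*xbp-1*, R74.3), and 2 encode mitochondrial chaperones (*hsp-6*, C37H5.8, and *hsp-60*, Y22D7AL.5). All 9 were found, and all 9 passed the filter on low values that 8345 protein-coding genes passed. Whole adult worms raised at 20°C were compared in 3 conditions. Under dietary restriction (DR), wild-type N2 worms received diluted OP50 bacteria from day 1 of adulthood. The DM worms (*daf-2;rsks-1*) were mutant in both genes and were kept on the well-fed (ad libitum, AL) diet, and the AL worms were N2 on that same diet. On a log10 scale the labels give the food as 9 CFU for DR and 11 CFU for AL, whereas the methods of the study give 11 for both, and the grouping does not depend on it. N2 worms were lysed after 4 days of feeding, and FUdR blocked egg production under both diets. For DM worms, the alleles and the use of FUdR are not given in the sources used here. The sample annotation used here lists lysis on day 4 for them as for N2 worms, but the methods of the study do not describe DM worms. Each condition has 4 libraries of total mRNA and 4 of translated mRNA, which sedimented with polysomes of 2 or more ribosomes in a sucrose gradient, so that 24 libraries form 6 groups.

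Secreted and membrane proteins enter the ER unfolded. HSP-3 and HSP-4, the worm's BiP-type HSP70 chaperones, hold exposed hydrophobic stretches, ENPL-1 is the HSP90-type chaperone of the ER (endoplasmin), calreticulin CRT-1 binds calcium and sugar-bearing clients, and the protein disulfide isomerases PDI-1 and PDI-2 form and rearrange disulfide bonds. When unfolded proteins accumulate, IRE-1 splices *xbp-1* mRNA, and the XBP-1 protein made from the spliced form raises transcription of chaperone genes, *hsp-4* being the usual reporter in worms. In mitochondria the HSP70 protein HSP-6 draws in and folds imported proteins and the chaperonin HSP-60 encloses them, and both genes are the usual reporters of the mitochondrial unfolded protein response, which the transcription factor ATFS-1 drives.

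The libraries had 7960544 to 15658505 reads on genes. The deposited values are read counts scaled by library size and by a composition factor of the library (normalized CPM), and the 9 genes had between 929 and 19262 reads in every library. Across genes, the lowest Spearman's rho between libraries of a group was 0.991 and the highest between groups was 0.934. Replicate 1 of translated mRNA of DM worms stood apart: the chi-square of its counts per degree of freedom against the other 3 libraries of its group was 7.40, 12.5 and 8.96, whereas all other pairs of libraries within groups had 1.25 to 2.70. Without it, no log2 value of the 9 genes moved by more than 0.042, and the one call lost was that of *crt-1* in translated mRNA of DM worms. Ribosomal RNA genes took 11.5 to 20.9% of the reads in translated mRNA of DR worms, against 1.88 to 7.77% in that of AL worms. *rsks-1*, 1 of the genes mutated in DM worms, had 13.7 ± 0.866 CPM in total mRNA of DM worms and 81.5 ± 4.19 CPM in that of AL worms, while *daf-2* had 51.8 ± 1.26 and 53.5 ± 2.91 CPM. In such bulk samples, fewer cells of a type and less RNA per cell cannot be told apart, and the cell type markers differed between the conditions. The 10 germline and oocyte markers summed to 6883 to 7277 CPM in total mRNA of DR worms, 6963 to 7400 CPM in that of DM worms and 10837 to 11227 CPM in that of AL worms, with 8 lower and 1 higher in DR worms and 9 lower and 1 higher in DM worms. No listed marker was at 0 in all libraries of a group. The 5 body wall muscle markers summed to 1784 to 1842 CPM in total mRNA of DR worms, 1217 to 1313 CPM in that of DM worms and 750.0 to 785 CPM in that of AL worms, all 5 being higher in DR and in DM. The 6 intestinal markers summed to 382 to 395 CPM in total mRNA of DR worms, 344 to 355 CPM in that of DM worms and 450.1 to 462 CPM in that of AL worms, with 3 lower and none higher in DR worms and 4 lower and 2 higher in DM worms. In translated mRNA, where 5 were higher and 1 lower in DR worms and 2 higher and 4 lower in DM worms, they summed to 1243 to 1294 CPM in DR worms, 545 to 562 CPM in DM worms and 773 to 850.4 CPM in AL worms. There the body wall muscle markers summed to 2701 to 2849, 929 to 1019 and 585 to 664 CPM in DR, DM and AL worms. All 5 of them were higher in DR and in DM worms. Germline and oocyte markers in translated mRNA summed to 3249 to 3410, 4622 to 4980 and 6217 to 6586 CPM in DR, DM and AL worms. Of these 10, 8 were lower and 1 higher in DR worms, and 7 lower and 2 higher in DM worms. The 5 neuronal markers summed to 453 to 466, 390.3 to 399.9 and 334 to 350.1 CPM in total mRNA of DR, DM and AL worms, the 5 hypodermal markers to 566 to 611, 215 to 230 and 275 to 324 CPM, and the 4 sperm markers to at most 8.61 CPM in any library. Of the hypodermal markers, 2 of the 5 passed the filter on low values, 1 of them higher and 1 lower in total mRNA of DR worms and both lower in that of DM worms, and of the 5 neuronal markers 4 were higher and 1 lower in DR and 3 higher and 1 lower in DM worms. Of all genes tested, 45.2% were lower and 34.7% higher in total mRNA of DR worms, and 48.4% lower and 29.4% higher in that of DM worms. In translated mRNA 47.6% were lower and 34.5% higher in DR worms, and 45.9% lower and 33.0% higher in DM worms. Some marker counts, such as 3 of 6 intestinal markers lower in total mRNA of DR worms, were near these shares. The part of the marker shifts in the chaperone results was not tested.

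Every chaperone gene was well expressed in each condition. Per length, as CPM per kb of exon, *crt-1* stood first in all 6 groups, at 505 ± 3.93 in total mRNA of DR worms, 787 ± 18.6 in that of DM worms and 536 ± 19.03 in that of AL worms (SD, n = 4). *hsp-60* stood last in 5 of the 6 groups, at 35.5 ± 0.722, 53.9 ± 3.99 and 73.1 ± 2.22 CPM per kb in the total mRNA of DR, DM and AL worms. In translated mRNA of DR worms the last place went to *hsp-6* at 74.0 ± 1.495 CPM per kb, below *enpl-1* at 86.5 ± 0.639 and *hsp-60* at 89.2 ± 2.91. The order of the middle ranks changed with the condition. In total mRNA of AL worms, *pdi-2* at 189 ± 7.48 and *xbp-1* at 186 ± 4.37 CPM per kb overlapped, and all other neighbours in the order were separate. *pdi-2* had rank 5 in total mRNA of DR worms and rank 2 in that of DM worms, where it had 163 ± 4.69 and 401 ± 18.5 CPM per kb. *xbp-1* had rank 2 in translated mRNA of DR worms, at 309 ± 11.7 CPM per kb, and rank 5 in that of AL worms at 222 ± 3.82. The plot of values by library shows how tight the 4 libraries of each group were for all 9 genes.

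**Figure D1:**
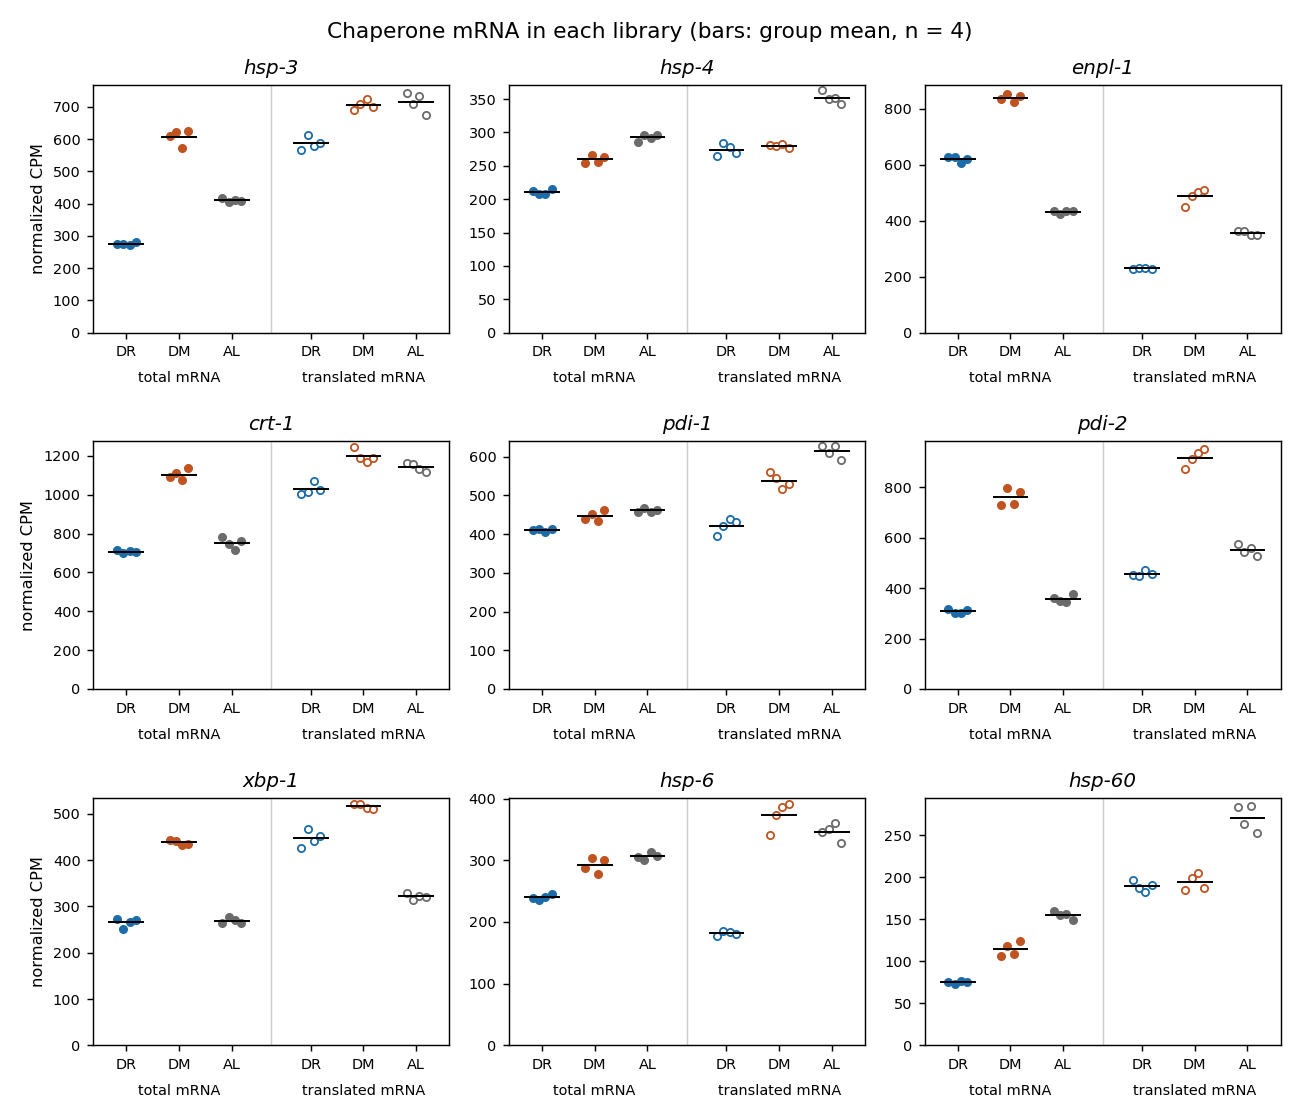
Normalized CPM (linear axis from 0) of each chaperone gene in total mRNA (filled points) and translated mRNA (open points) of DR, DM and AL worms, 1 point per library with a bar at the mean of 4. *hsp-60* in total mRNA stands lowest under DR, *enpl-1* is the gene with less translated than total mRNA in all 3 conditions, and *pdi-2* stands highest in DM worms in both pools.

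A gene was said to differ when its adjusted p (limma, all genes tested) was under 0.05, and to be called at 2-fold when it also changed at least 2-fold. Groups whose libraries do not overlap, as given below for single genes, were common over all genes. Between DR and AL worms 78.1% of all genes had no overlap in total mRNA and 72.2% in translated mRNA. Between DM and AL worms the shares were 75.5% and 70.1%, and between DM and DR worms 81.2% and 72.3%. In total mRNA, 8 of the 9 genes differed between DR and AL worms, 7 of them lower and 1 higher. Among all genes tested 80.0% differed, so this share is near the background, with 45.2% lower and 34.7% higher. 1 of the 9 was called at 2-fold, against 11.8% of all genes. In translated mRNA all 9 differed, 8 lower and 1 higher under DR, against 82.1% of all genes, 47.6% lower and 34.5% higher. None of the 9 was called at 2-fold there, where 15.2% of all genes were. The median log2 change of the 9 was -0.21 in total and -0.36 in translated mRNA, beside -0.069 and -0.098 over all genes.

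The DM worms differed from AL worms in another way. In total mRNA, 5 of the 9 genes were higher and 2 lower in DM worms, against 29.4% higher and 48.4% lower of all genes (37.7% higher and 35.6% lower under plain CPM), so that 77.8% of all genes differed. In translated mRNA, 5 were higher and 3 lower, against 33.0% and 45.9% of all genes (55.9% higher and 23.5% lower under plain CPM, 58.0% higher and 23.5% lower as CPM of coding reads), 78.9% in either direction. The counts of the 9 are those of the values as deposited. Under plain CPM and as CPM of coding reads, *hsp-3* (0.29 and 0.30) and *pdi-1* (0.12 and 0.13) passed as higher in translated mRNA. *hsp-4* passed under neither there, nor under plain CPM in total mRNA. 1 of the 9 was called at 2-fold in total mRNA and none in translated mRNA, against 7.74% and 11.1% of all genes. The median log2 change of the 9 was 0.55 in total mRNA, beside -0.11 over all genes, and 0.069 in translated mRNA, beside -0.082. Both comparisons use the same AL libraries. Scaling shifts all genes at once: other scalings moved the median over all genes by up to 0.053 for DR against AL and 0.12 for DM against AL in total mRNA, and by up to 0.11 and 0.32 in translated mRNA, so that small changes in translated mRNA of DM worms depend on it.

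**Figure D2:**
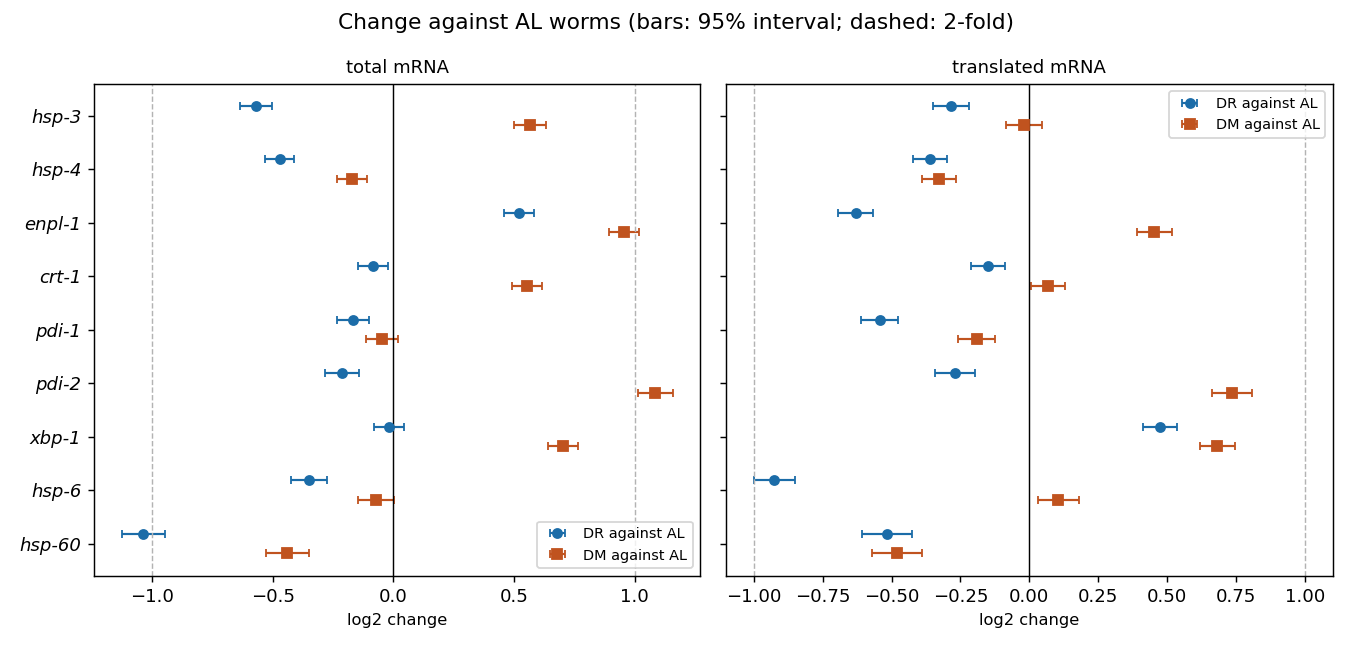
Log2 change of each chaperone gene against AL worms in total mRNA (left) and translated mRNA (right), for DR (circles) and DM worms (squares), with 95% intervals and dashed lines at 2-fold. *hsp-60* under DR and *pdi-2* in DM worms lie past the 2-fold lines in total mRNA, and *enpl-1* under DR lies on opposite sides of 0 in the 2 pools.

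The BiP genes *hsp-3* and *hsp-4* were both lower under DR. In total mRNA, *hsp-3* had 276, 275, 273 and 280.1 CPM in the 4 libraries of DR worms, 608, 621, 574 and 626 CPM in those of DM worms and 416, 404, 409.6 and 409 CPM in those of AL worms. The groups did not overlap, DM worms being highest and DR worms lowest. The log2 change of *hsp-3* was -0.57 ± 0.032 (SE, limma, adjusted p = 1.16e-18) for DR and 0.57 ± 0.032 (SE, limma, adjusted p = 2.08e-18) for DM worms. In translated mRNA, *hsp-3* had 566, 612, 579.7 and 588 CPM in DR, 689, 709, 723 and 699.6 CPM in DM and 744, 709.6, 733 and 673 CPM in AL worms. The DR libraries lay below all others there, and those of DM and AL worms overlapped. *hsp-3* fell by 0.29 ± 0.032 on the log2 scale in translated mRNA of DR worms (SE, limma, adjusted p = 2.95e-10), whereas its change in that of DM worms was -0.020 ± 0.032 (SE, limma, adjusted p = 0.575), with an interval of -0.086 to 0.046, and was between 0.062 and 0.30 under every other scaling tried.

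*hsp-4* was lower in both conditions and both pools. Its total mRNA was 213, 208, 208 and 215 CPM in DR worms, 254, 266, 256 and 263 CPM in DM worms and 286, 297, 292 and 296 CPM in AL worms. The groups were again separate, but here the AL worms were highest. The log2 change of *hsp-4* was -0.47 ± 0.030 (SE, limma, adjusted p = 4.84e-17) for DR and -0.17 ± 0.030 (SE, limma, adjusted p = 3.53e-06) for DM worms, the second not past the test under plain CPM (-0.048, adjusted p = 0.274). In translated mRNA it averaged 274 ± 9.12 CPM in DR, 280.2 ± 2.78 CPM in DM and 352 ± 8.69 CPM in AL worms (SD, n = 4), with log2 changes of -0.36 ± 0.030 and -0.33 ± 0.030 (SE). Both passed the test (limma, adjusted p = 9.79e-14 and 1.96e-12), the second not under plain CPM (-0.019, adjusted p = 0.671) or as CPM of coding reads (adjusted p = 0.876).

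The 2 BiP genes moved apart in DM worms, which a ratio within each library shows without any scaling. Per exon length, *hsp-4* stood to *hsp-3* in total mRNA at 0.499, 0.511, 0.533 and 0.502 in the 4 libraries of DM worms, 0.921, 0.904, 0.908 and 0.919 in those of DR worms and 0.82, 0.876, 0.852 and 0.865 in those of AL worms. The DM ratio lay far below both others. The log2 difference in ratio to AL worms was -0.74 for DM and 0.10 for DR worms, each with p = 0.0286 in a two-sided exact permutation test (adjusted p = 0.0327 over 8 ratio comparisons), which is the smallest p that 4 against 4 libraries can give. In translated mRNA the mean ratio was 0.475 ± 0.00911 in DM, 0.557 ± 0.0114 in DR and 0.588 ± 0.0149 in AL worms (SD, n = 4). The difference to AL worms there passed for DM worms (exact p = 0.0286, adjusted p = 0.0327) and not for DR worms (exact p = 0.0571). *hsp-3* and *hsp-4* encode closely related proteins, and how the authors' counting treated reads that could fit both genes was not tested.

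**Figure D3:**
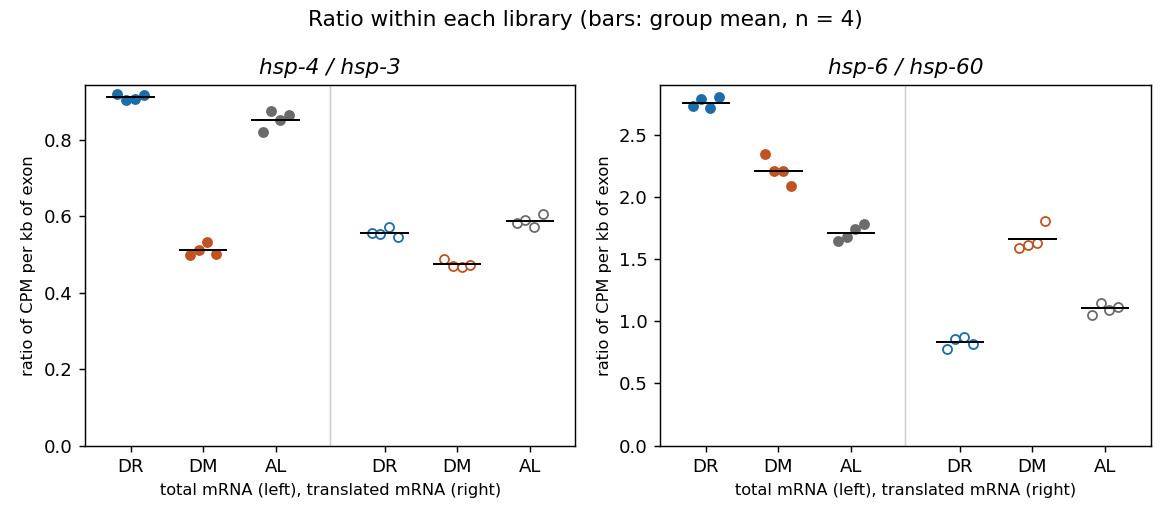
Ratio of *hsp-4* to *hsp-3* (left) and of *hsp-6* to *hsp-60* (right), each as CPM per kb of exon, in total mRNA (filled points) and translated mRNA (open points) of DR, DM and AL worms, 1 point per library with a bar at the mean of 4. The ratio of *hsp-4* to *hsp-3* in total mRNA is lowest in DM worms at a mean of 0.511, and that of *hsp-6* to *hsp-60* under DR stands highest in total and lowest in translated mRNA.

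*enpl-1* was the one gene whose total and translated mRNA moved in opposite directions under DR. Its total mRNA was 627, 628, 607 and 619 CPM in DR worms, 835, 853, 824 and 845 CPM in DM worms and 435, 424, 436 and 434 CPM in AL worms. Every DR and DM library exceeded every AL library. The log2 change of *enpl-1* was 0.52 ± 0.031 (SE, limma, adjusted p = 7.58e-18) for DR and 0.96 ± 0.031 (SE, limma, adjusted p = 3.42e-26) for DM worms. On polysomes, *enpl-1* had 228, 230.0, 231 and 228 CPM in DR worms, 449, 487, 503 and 509 CPM in DM worms and 363, 362, 348 and 348 CPM in AL worms. Now the DR libraries lay below, and the DM libraries above, all AL libraries. The log2 change in translated mRNA was -0.63 ± 0.031 (SE, limma, adjusted p = 1.53e-20) for DR and 0.45 ± 0.031 (SE, limma, adjusted p = 5.07e-16) for DM worms. With the total mRNA of DM worms at a log2 change of 0.96, *enpl-1* missed the 2-fold threshold there by a small margin, and it passed it under plain CPM, TMM on the genes kept, edgeR and CPM of coding reads.

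*crt-1*, the most abundant of the 9 per length, changed little under DR. It had 713, 699.8, 709 and 707 CPM in total mRNA of DR worms, 1091, 1109.7, 1075 and 1136 CPM in that of DM worms and 780.4, 748, 716 and 759 CPM in that of AL worms. The DM libraries stood well above the rest, and the DR libraries lay just below the AL libraries. Its log2 change in total mRNA was -0.086 ± 0.031 (SE, limma, adjusted p = 0.0106) for DR worms, which did not pass without AL replicate 1 (-0.067, adjusted p = 0.061) or under plain CPM (-0.032, adjusted p = 0.437), and 0.55 ± 0.031 (SE, limma, adjusted p = 6.33e-19) for DM worms. In translated mRNA *crt-1* averaged 1029 ± 30.4 CPM in DR, 1197 ± 34.8 CPM in DM and 1141 ± 21.1 CPM in AL worms (SD, n = 4), with log2 changes of -0.15 ± 0.031 (SE, limma, adjusted p = 3.01e-05) for DR and 0.069 ± 0.031 (SE, limma, adjusted p = 0.0387) for DM worms. The last did not pass without AL replicate 3 (adjusted p = 0.0798), AL replicate 4 (0.1) or DM replicate 1 (0.11) of translated mRNA, or with only the 2 groups in the fit (0.109). Of the exon length of *crt-1*, 6.57% overlaps *smut-1* on the other strand, and without strand the reads of the shared bases cannot be assigned.

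The 2 disulfide isomerase genes differed. *pdi-2*, whose product is also a subunit of the worm's collagen prolyl 4-hydroxylase, had 318, 303, 300.1 and 315 CPM in total mRNA of DR worms, 729, 799, 734 and 783 CPM in that of DM worms and 362, 350.0, 344 and 376 CPM in that of AL worms. The lowest DM library was far above the highest AL library, and the DR libraries lay below all AL libraries. *pdi-2* rose by a log2 value of 1.09 ± 0.036 (SE, limma, adjusted p = 2.77e-26) in DM worms, and 3.88% of all genes had a higher value. In DR worms its change was -0.21 ± 0.036 (SE, limma, adjusted p = 1.28e-06). Its translated mRNA was 450.5, 449, 471 and 458 CPM in DR, 874, 914, 935 and 951 CPM in DM and 576, 544, 561 and 526 CPM in AL worms. The order of the groups was that of total mRNA, with log2 changes of -0.27 ± 0.036 (SE, limma, adjusted p = 9.63e-09) for DR and 0.74 ± 0.036 (SE, limma, adjusted p = 6.36e-21) for DM worms. *pdi-1* moved less. It averaged 411 ± 4.56 CPM in total mRNA of DR worms, 447 ± 12.9 CPM in that of DM worms and 462 ± 4.88 CPM in that of AL worms (SD, n = 4). The log2 change was -0.17 ± 0.033 (SE, limma, adjusted p = 1.63e-05) for DR worms, and for DM worms it was -0.047 ± 0.033 (SE, limma, adjusted p = 0.187), an interval of -0.11 to 0.019 with overlapping libraries and a sign that changed with the scaling. In translated mRNA, *pdi-1* had 394, 420.2, 440.4 and 431 CPM in DR worms, 560.2, 544, 517 and 529.7 CPM in DM worms and 628, 610.1, 628 and 590.5 CPM in AL worms. These 3 groups were separate, and the log2 change was -0.54 ± 0.033 (SE, limma, adjusted p = 5.51e-18) for DR and -0.19 ± 0.033 (SE, limma, adjusted p = 1.97e-06) for DM worms, the second of which turned positive under plain CPM (0.12) and CPM of coding reads (0.13).

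The mRNA of *xbp-1* was higher in DM worms in both pools and higher in DR worms on polysomes. In total mRNA, *xbp-1* had 274, 252, 266 and 271 CPM in DR worms, 443, 441, 433 and 436 CPM in DM worms and 263, 277, 271 and 265 CPM in AL worms. The DR and AL libraries overlapped, and the DM libraries stood apart above both. The log2 change of *xbp-1* was -0.018 ± 0.031 (SE, limma, adjusted p = 0.602) for DR worms, an interval of -0.081 to 0.045 with a sign that changed with the scaling, and 0.70 ± 0.031 (SE, limma, adjusted p = 4.98e-22) for DM worms. In translated mRNA it had 427, 467, 442 and 453 CPM in DR worms, 521, 522, 512 and 510.3 CPM in DM worms and 328, 315, 322 and 322 CPM in AL worms. All 3 groups were separate, with log2 changes of 0.47 ± 0.031 (SE, limma, adjusted p = 7.18e-17) for DR and 0.68 ± 0.031 (SE, limma, adjusted p = 8.91e-22) for DM worms. A gene count adds spliced and unspliced *xbp-1* mRNA, so it does not give the amount of the spliced form.

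The mitochondrial chaperone genes were both lower under DR. *hsp-60* had 75.6, 73.1, 76.8 and 75.6 CPM in total mRNA of DR worms, 106, 118.8, 109 and 124 CPM in that of DM worms and 160.1, 155, 156 and 149 CPM in that of AL worms. The 3 groups did not overlap. *hsp-60* fell by 1.04 ± 0.044 on the log2 scale under DR (SE, limma, adjusted p = 1.01e-22), a change that 7.73% of all genes exceeded downward and that was just under 2-fold under plain CPM (-0.98). In DM worms it fell by 0.44 ± 0.044 (SE, limma, adjusted p = 2.05e-11). On polysomes *hsp-60* had 197, 187, 182 and 190.4 CPM in DR worms, 185, 199, 205 and 187 CPM in DM worms and 284, 264, 285 and 253 CPM in AL worms. The DR and DM libraries overlapped, and all AL libraries were above them, with log2 changes of -0.52 ± 0.044 (SE, limma, adjusted p = 1.67e-13) for DR and -0.48 ± 0.044 (SE, limma, adjusted p = 1.53e-12) for DM worms.

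*hsp-6* changed more on polysomes than in total mRNA. In total mRNA it had 239.6, 236, 241 and 245 CPM in DR worms, 287, 303, 278 and 300.3 CPM in DM worms and 305, 301, 314 and 307 CPM in AL worms. The DR libraries were lowest, and those of DM and AL worms overlapped, with log2 changes of -0.35 ± 0.037 (SE, limma, adjusted p = 5e-11) for DR and -0.071 ± 0.037 (SE, limma, adjusted p = 0.0781) for DM worms. The sign of the second changed with the scaling, and it passed without DM replicate 2 of total mRNA (-0.089, adjusted p = 0.0413) and with only the 2 groups in the fit (0.0229). In translated mRNA *hsp-6* had 178, 186, 184 and 179.9 CPM in DR worms, 341, 374, 386 and 391 CPM in DM worms and 347, 351, 361 and 327 CPM in AL worms. Every DR library held far less than any other, and DM and AL libraries overlapped. *hsp-6* fell by 0.93 ± 0.037 under DR (SE, limma, adjusted p = 8.63e-24), whereas its log2 change in DM worms was 0.11 ± 0.037 (SE, limma, adjusted p = 0.00932), which did not pass without AL replicate 4 (adjusted p = 0.0578) or DM replicate 4 (0.055) of translated mRNA.

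The ratio of *hsp-6* to *hsp-60* per exon length, taken within each library, was lower in translated than in total mRNA in all 3 conditions, with the widest gap under DR. In total mRNA the ratio was 2.73, 2.79, 2.71 and 2.80 in DR worms, 2.34, 2.20, 2.20 and 2.09 in DM worms and 1.64, 1.67, 1.74 and 1.78 in AL worms. In translated mRNA it was 0.779, 0.856, 0.872 and 0.815 in DR worms, 1.59, 1.62, 1.62 and 1.80 in DM worms and 1.05, 1.15, 1.09 and 1.12 in AL worms. The DR ratio was thus the highest of the 3 in total mRNA and the lowest in translated mRNA. Against AL worms, the log2 difference in ratio was 0.69 in total and -0.41 in translated mRNA for DR worms, and 0.37 and 0.59 for DM worms, each with exact p = 0.0286 (two-sided permutation test, adjusted p = 0.0327).

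Translated against total mRNA shows how far a transcript was associated with polysomes relative to others. In DR worms, 6 of the 9 genes were higher in translated mRNA and 2 were lower (*enpl-1* and *hsp-6*), against 43.4% and 45.4% of all genes (32.1% higher and 57.2% lower under plain CPM), 88.8% in either direction. In DM worms 8 were higher and *enpl-1* was lower, against 41.0% and 43.5% of all genes, 84.5% in either direction. In AL worms the same 8 were higher and *enpl-1* was lower, against 44.8% higher and 41.6% lower of all genes, 86.3% in either direction. At 2-fold, 3 of the 9 were called in DR worms, where 32.7% of all genes were, and none in DM or AL worms, where 14.1% and 16.0% were. In DR worms the translated-to-total log2 ratio was 1.32 ± 0.044 for *hsp-60*, 1.09 ± 0.032 for *hsp-3* and -1.43 ± 0.031 for *enpl-1* (SE, limma, adjusted p = 1.01e-26, 2.52e-28 and 9.78e-33). *pdi-1* was the gene that did not pass in DR worms, at 0.036 ± 0.033 (SE, limma, adjusted p = 0.295), and its sign and call changed with the scaling (-0.26 under plain CPM, 0.15 with TMM on the genes kept). The value of *hsp-6* in AL worms, 0.17, did not pass under plain CPM (adjusted p = 0.413), and that of *hsp-4* in DR worms, 0.37, likewise (adjusted p = 0.0669).

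**Figure D4:**
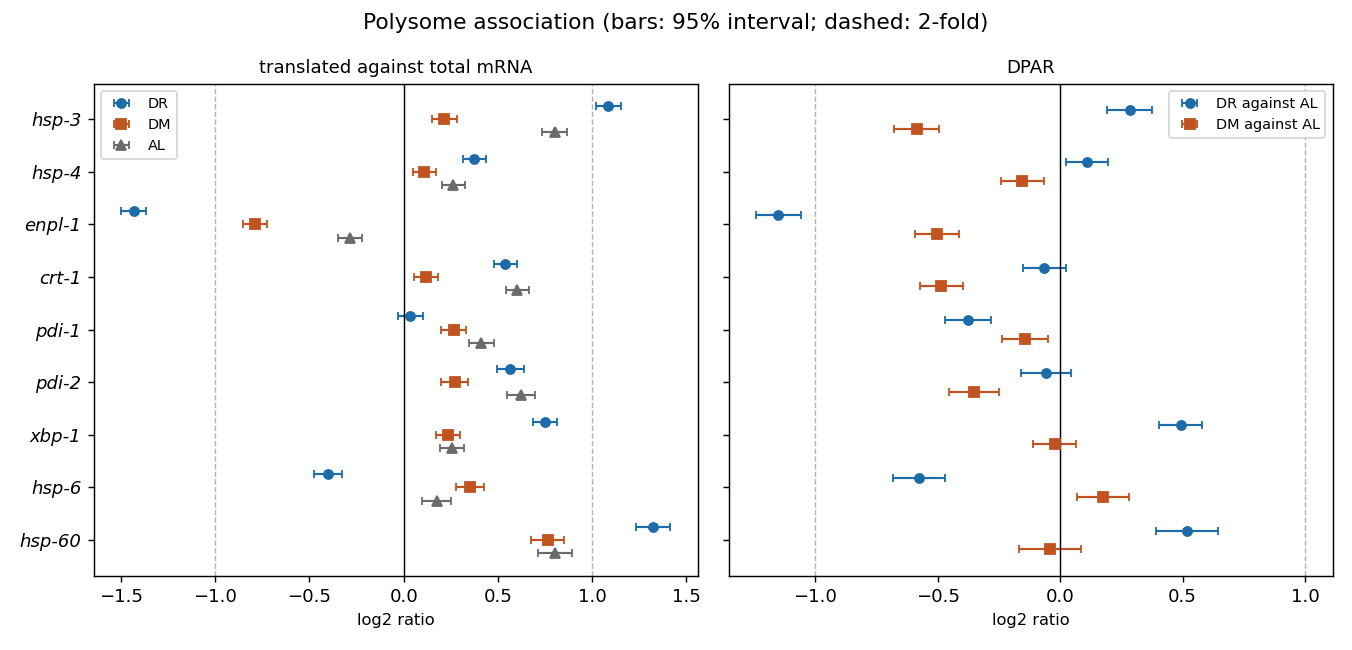
Left, translated-to-total log2 ratio of each chaperone gene in DR, DM and AL worms. Right, its difference to AL worms (DPAR) for DR and DM worms. Points are estimates with 95% intervals, and dashed lines mark 2-fold. *enpl-1* lies below 0 in all 3 conditions and reaches -1.43 in DR worms.

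The difference in this ratio between conditions, called DPAR (differential polysome association ratio), was called at 2-fold for 1 of the 9 genes between DR and AL worms, against 5.67% of all genes. That gene was *enpl-1*, with a DPAR of -1.15 ± 0.045 (SE, limma, adjusted p = 3.42e-23), exceeded downward by 1.1% of all genes. It ranged from -1.16 to -1.14 when each library was left out in turn and from -1.31 to -1.07 under other scalings. At the adjusted p alone, 4 of the 9 were higher and 3 lower in DR worms, against 35.4% and 32.0% of all genes (24.2% higher and 43.4% lower under plain CPM), 67.5% in either direction. Lower beside *enpl-1* were *hsp-6* at -0.58 ± 0.052 (SE, limma, adjusted p = 2.56e-12) and *pdi-1* at -0.38 ± 0.046 (SE, limma, adjusted p = 5.21e-09). Higher were *hsp-60* at 0.52 ± 0.063 (SE, limma, adjusted p = 2.93e-09), *xbp-1* at 0.49 ± 0.044 (SE, limma, adjusted p = 1.89e-12) and *hsp-3* at 0.28 ± 0.046 (SE, limma, adjusted p = 1.18e-06), the last not past the test under plain CPM (0.12, adjusted p = 0.0594). The fourth was *hsp-4* at 0.11 ± 0.043 (SE, limma, adjusted p = 0.0232), which did not pass without DR replicate 2 of translated mRNA (adjusted p = 0.0606) and had the opposite sign under plain CPM (-0.052). The DPAR of *crt-1* was -0.064 ± 0.043 (SE, limma, adjusted p = 0.189) and that of *pdi-2* -0.057 ± 0.050 (SE, limma, adjusted p = 0.316), with intervals of -0.15 to 0.024 and -0.16 to 0.045, and the sign of both changed with the scaling. Under plain CPM both passed as lower (-0.23 and -0.22).

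Between DM and AL worms, all 6 ER chaperone genes were lower in DPAR, against 28.6% of all genes, while 1 of the 9 was higher, against 26.1% (43.6% higher and 13.9% lower under plain CPM, 49.8% higher and 13.1% lower as CPM of coding reads) and 54.7% in either direction. The counts of members are those of the values as deposited and changed under these 2 scalings. The values were -0.59 ± 0.046 (SE, limma, adjusted p = 1.24e-13) for *hsp-3*, -0.50 ± 0.045 (SE, limma, adjusted p = 3.84e-12) for *enpl-1*, -0.49 ± 0.043 (SE, limma, adjusted p = 4.4e-12) for *crt-1* and -0.35 ± 0.050 (SE, limma, adjusted p = 2.41e-07) for *pdi-2*. These 4 were lower under every scaling tried. The values of *hsp-4*, -0.15 ± 0.043 (SE, limma, adjusted p = 0.00252), and *pdi-1*, -0.14 ± 0.046 (SE, limma, adjusted p = 0.00823), were smaller and turned positive under plain CPM and CPM of coding reads, where neither passed. That of *pdi-1* also did not pass with median-ratio scaling (-0.090, limma, adjusted p = 0.0775) or DESeq2 (-0.090, adjusted p = 0.0531). *hsp-6* was higher at 0.18 ± 0.052 (SE, limma, adjusted p = 0.00429), and *xbp-1* at -0.022 ± 0.044 (SE, limma, adjusted p = 0.69) and *hsp-60* at -0.041 ± 0.063 (SE, limma, adjusted p = 0.597) did not pass, with signs that changed with the scaling. *xbp-1* passed as higher under plain CPM (0.16) and as CPM of coding reads (0.20), and *hsp-60* as CPM of coding reads (0.18). None of the 9 was called at 2-fold, where 1.75% of all genes were.

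**Figure D5:**
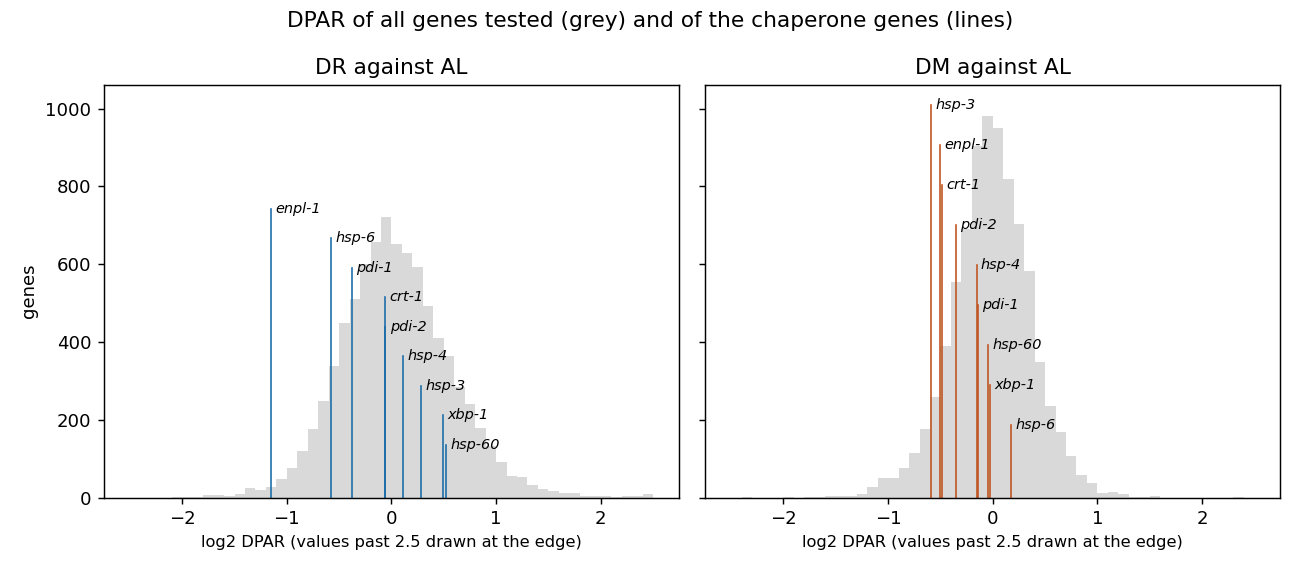
Histograms of the log2 DPAR of all 8345 genes tested (grey, number of genes on the vertical axis), for DR (left) and DM worms (right) against AL worms, with a line at the value of each chaperone gene whose height only separates the names. *enpl-1* lies in the lower tail under DR, at -1.15, and the 6 ER chaperone genes all lie below 0 in DM worms.

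Set directly against DR worms, DM worms had more of every chaperone mRNA in the total pool. All 9 were higher, against 40.3% of all genes and 82.4% in either direction, and *pdi-2* and *hsp-3* were called at 2-fold (14.9% of all genes), with log2 differences of 1.30 ± 0.036 (SE, limma, adjusted p = 2.63e-29) and 1.14 ± 0.032 (SE, limma, adjusted p = 1.11e-28). The smallest was that of *pdi-1*, 0.12 ± 0.033 (SE, limma, adjusted p = 0.001). In translated mRNA 7 of the 9 were higher in DM worms, against 42.1% of all genes (67.6% higher and 19.5% lower under plain CPM, 57.3% higher and 27.9% lower as CPM of coding reads) and 83.2% in either direction. *enpl-1*, *hsp-6* and *pdi-2* were called at 2-fold (16.9% of all genes), with log2 differences of 1.08 ± 0.031 (SE, limma, adjusted p = 2.22e-28), 1.03 ± 0.037 (SE, limma, adjusted p = 1.87e-25) and 1.01 ± 0.036 (SE, limma, adjusted p = 1.45e-25). *pdi-2* was just short of 2-fold there (at the lowest, 0.988 on the log2 scale) without replicate 3 or 4 of DM or replicate 1 or 2 of DR worms. *hsp-4* at 0.035 ± 0.030 (SE, limma, adjusted p = 0.288) and *hsp-60* at 0.036 ± 0.044 (SE, limma, adjusted p = 0.448) did not pass, but both passed under plain CPM (0.45 and 0.45) and as CPM of coding reads (0.27 and 0.27). In DPAR, 3 were higher in DM than in DR worms (*hsp-6*, *enpl-1* and *pdi-1*, at 0.75, 0.65 and 0.23). The other 6 were lower, from -0.87 for *hsp-3* to -0.26 for *hsp-4*. Of all 8345 genes tested, 2587 were higher and 3060 (36.7%) lower, 67.7% in either direction, so that the 3 higher were near the background. Under plain CPM 57.5% of all genes were higher and 16.9% lower, and as CPM of coding reads 43.0% and 26.8%. The sign of *hsp-4* and *pdi-2* turned under plain CPM, where neither passed. *crt-1* did not pass under it either (-0.074, limma, adjusted p = 0.205). None was called at 2-fold (7.74% of all genes).

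Over the 24 libraries, which fall into 6 groups, the log2 values of the 9 genes did not run in parallel. *hsp-3* and *crt-1* were the pair most alike (Pearson's r = 0.954), followed by *hsp-4* and *hsp-60* (0.923) and *crt-1* and *pdi-2* (0.893). *enpl-1* ran against *hsp-60* (-0.657) and *hsp-4* (-0.467). These correlations share libraries and groups and are given as descriptions. The genes most like each member over the same libraries were *fah-1*, *lbp-1* and *cytb-5.1* for *hsp-3* (r = 0.976 to 0.986), *Y7A5A.1*, *skr-10* and *skr-8* for *hsp-4* (0.983 to 0.985), *tif-1A*, *Y71G10AR.4* and *Y17G7B.20* for *enpl-1* (0.949 to 0.970) and *F46C8.3*, *F38B7.3* and *C07A12.7* for *crt-1* (0.961 to 0.970). For *pdi-1* they were *cct-8*, *acl-4* and *dhs-6* (0.954 to 0.968), for *pdi-2* *paic-1*, the collagen gene *sqt-3* and *PDB1.1* (0.977 to 0.984), and for *xbp-1* *Y25C1A.14*, *clc-24* and *T12D8.5* (0.979 to 0.981). For *hsp-6* they were *pgp-5*, *pad-2* and *nkb-1* (0.947 to 0.954), and for *hsp-60* *dhs-3*, *ZK1320.2* and *gst-22* (0.984 to 0.989).

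Of the 3 sensors of ER stress, 1 was lower and none higher in total mRNA of DR worms, where 45.2% of all genes were lower. *ire-1*, which encodes the kinase and nuclease that splices *xbp-1* mRNA, averaged 127 ± 3.07 CPM in total mRNA of DR worms, 134 ± 4.76 CPM in that of DM worms and 154 ± 3.66 CPM in that of AL worms (SD, n = 4), with log2 changes of -0.27 ± 0.036 (SE, limma, adjusted p = 1.32e-08) and -0.20 ± 0.036 (SE, limma, adjusted p = 5.46e-06), the second not past the test under plain CPM (-0.077, adjusted p = 0.133). *pek-1*, the gene of the kinase that phosphorylates eIF2α, did not pass in total mRNA, and in translated mRNA it changed by -0.34 ± 0.083 (SE, limma, adjusted p = 0.000368) in DR and -0.90 ± 0.083 (SE, limma, adjusted p = 1.98e-12) in DM worms. *atf-6*, the gene of the membrane-bound transcription factor, fell in translated mRNA of DR worms, -0.57 ± 0.090 (SE, limma, adjusted p = 3.66e-07), and rose in total mRNA of DM worms, 0.27 ± 0.090 (SE, limma, adjusted p = 0.00711).

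Of the 14 kept of 15 other ER folding and oxidation genes, 9 were lower and 3 higher in total mRNA of DR worms (45.2% and 34.7% of all genes) and 2 lower and 10 higher in that of DM worms (48.4% and 29.4% of all genes), with median log2 changes of -0.26 and 0.31, beside -0.069 and -0.11 over all genes. Under DR, *cyn-6*, a cyclophilin gene, and *dnj-7*, a gene of a DnaJ-domain protein, fell at least 2-fold, with log2 changes of -1.22 ± 0.069 (SE, limma, adjusted p = 1.17e-18) and -1.06 ± 0.056 (SE, limma, adjusted p = 1.01e-19). In DM worms *fkb-3*, a gene of an FKBP-type prolyl isomerase, rose by 1.27 ± 0.091 (SE, limma, adjusted p = 1.53e-15) in total and 1.21 ± 0.091 (SE, limma, adjusted p = 4.49e-15) in translated mRNA, and *T24H7.2* changed by -1.28 ± 0.042 (SE, limma, adjusted p = 2.01e-26) in translated mRNA. In translated mRNA, 10 were lower and 3 higher in DR worms (47.6% and 34.5% of all genes; 8 to 11 lower and at most 3 higher under other scalings). In that of DM worms, 7 were lower and 4 higher (45.9% and 33.0% of all genes; 5 to 7 lower and 4 to 7 higher under other scalings), and the median turned positive under plain CPM and CPM of coding reads. In DPAR, 6 were lower and 5 higher in DR worms (32.0% and 35.4% of all genes), which became 5 to 8 lower and 1 to 5 higher under other scalings, the median changing sign under 3 of them. In DM worms 9 were lower and none higher (28.6% and 26.1% of all genes; 8 to 9 lower and at most 4 higher under other scalings), with *T14G8.3* at -1.0004 ± 0.081 (SE, limma, adjusted p = 3.37e-13), which was under 2-fold without replicate 1 of translated mRNA of DM worms. *fkb-3* and *T14G8.3* share 111 and 91 exon bases with a gene on the other strand.

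Of 13 kept of the 14 genes of the translocon, signal recognition particle and signal peptidase, 7 were lower and 5 higher in total mRNA of DR worms (45.2% and 34.7% of all genes) and 12 lower and 1 higher in translated mRNA (47.6% and 34.5%), with medians of -0.14 and -0.28. In DM worms 11 of the 13 were lower in total mRNA (48.4% of all genes) and 11 lower and 1 higher in translated mRNA (45.9% and 33.0%), with medians of -0.36 and -0.42. Under other scalings these became 7 to 11 lower in total mRNA and 6 to 11 lower and 1 to 2 higher in translated mRNA, where the median was -0.34 to -0.10. Of 13 kept of the 14 ER-associated degradation genes, 7 were lower and 3 higher in total mRNA (45.2% and 34.7% of all genes) and 7 lower and 4 higher in translated mRNA of DR worms (47.6% and 34.5%). In DM worms 11 were lower and 1 higher in total mRNA (48.4% and 29.4% of all genes; 8 to 10 lower under other scalings) and 9 lower and 2 higher in translated mRNA (45.9% and 33.0%; 3 to 7 lower and 3 to 7 higher under other scalings). Their median in translated mRNA of DM worms, -0.24, turned positive under plain CPM and CPM of coding reads.

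On the mitochondrial side, the transcript of the regulator ATFS-1 was lower in total mRNA and higher in translated mRNA of DR worms. *atfs-1* averaged 50.3 ± 1.89 CPM in total mRNA of DR worms, 56.8 ± 1.19 CPM in that of DM worms and 69.4 ± 3.71 CPM in that of AL worms (SD, n = 4), and 48.8 ± 2.14, 43.5 ± 2.15 and 40.7 ± 3.08 CPM in translated mRNA of the same. Its log2 change under DR was -0.46 ± 0.053 (SE, limma, adjusted p = 4.95e-10) in total and 0.26 ± 0.053 (SE, limma, adjusted p = 2.75e-05) in translated mRNA, with a DPAR of 0.72 ± 0.075 (SE, limma, adjusted p = 8.98e-11), and in DM worms it was -0.29 ± 0.053 (SE, limma, adjusted p = 8.48e-06) in total mRNA. *dve-1*, the gene of a homeodomain cofactor, rose in total mRNA of DR worms by 0.36 ± 0.099 (SE, limma, adjusted p = 0.0011), and *ubl-5*, the gene of its ubiquitin-like partner, was lower in translated mRNA of DR worms at -0.17 ± 0.073 (SE, limma, adjusted p = 0.0309), a call lost under 3 of 4 other scalings, and in total mRNA of DM worms at -0.53 ± 0.073 (SE, limma, adjusted p = 3.79e-08). *clpp-1*, the gene of the matrix protease, had 20.7 ± 3.19 CPM in translated mRNA of DR worms and 45.0 ± 1.90 CPM in that of AL worms (SD, n = 4), a log2 change of -1.12 ± 0.073 (SE, limma, adjusted p = 8.01e-17), with a DPAR of -1.13 ± 0.10 (SE, limma, adjusted p = 4.36e-12). Of the 6 kept of 7 regulators, 1 was lower and 3 higher in total mRNA (45.2% and 34.7% of all genes) and 2 lower and 2 higher in translated mRNA of DR worms (47.6% and 34.5%), the second becoming 1 to 3 lower and 2 to 3 higher under other scalings, with a median of 0.058 that turned negative under plain CPM. In DM worms 4 were lower and none higher in total mRNA (48.4% and 29.4% of all genes; 2 to 3 lower under other scalings) and 4 lower and 1 higher in translated mRNA (45.9% and 33.0%; 1 to 3 lower and 2 higher under other scalings).

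Of the 9 other mitochondrial folding and protease genes, 8 were lower in total mRNA (48.4% of all genes) and 9 in translated mRNA of DM worms (45.9% of all genes), with medians of -0.39 and -0.37, and 5 to 8 in total and 4 to 7 in translated mRNA under other scalings. *Y22D7AL.10* changed most among them, at -1.08 ± 0.045 (SE, limma, adjusted p = 4.02e-23) in translated mRNA. In DR worms 2 of the 9 were lower and 4 higher in total mRNA (45.2% and 34.7% of all genes), and 5 lower and 2 higher in translated mRNA (47.6% and 34.5%; 4 to 7 lower and 1 to 2 higher under other scalings). Of the 11 import genes, 9 were lower and 1 higher in total mRNA (48.4% and 29.4% of all genes) and 10 lower in translated mRNA of DM worms (45.9%), with *tomm-22*, a gene of an outer membrane import receptor, at -1.11 ± 0.049 (SE, limma, adjusted p = 2.55e-22) in translated mRNA. Under other scalings 7 to 9 were lower in each pool of DM worms, and the median in translated mRNA, -0.48 as reported, was -0.40 to -0.16. In DR worms 3 of the 11 were lower and 7 higher in total mRNA (45.2% and 34.7% of all genes). In their translated mRNA 2 were lower and 3 higher (47.6% and 34.5%), which became 2 to 8 lower and 3 higher under other scalings, and the median of -0.058 turned positive under 3 of them. For comparison with the cytosol, *hsp-90*, the gene of the cytosolic HSP90, changed under DR by 0.36 ± 0.030 (SE, limma, adjusted p = 5.05e-14) in total and -0.70 ± 0.030 (SE, limma, adjusted p = 5.79e-23) in translated mRNA, with a DPAR of -1.07 ± 0.042 (SE, limma, adjusted p = 5.11e-23). Of the 3 kept of 4 cytosolic HSP70 and HSP90 genes, 2 were lower and 1 higher in total mRNA of DR worms (45.2% and 34.7% of all genes). In translated mRNA of DR worms 3 were lower (47.6% of all genes). In DM worms 1 was lower and 2 higher in total mRNA (48.4% and 29.4% of all genes) and 1 lower in translated mRNA (45.9%). The last became none lower and up to 3 higher under other scalings.

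Between translated and total mRNA, 8 of the 72 listed genes kept were called at 2-fold in DR worms, 2 in DM worms and 6 in AL worms, against 32.7%, 14.1% and 16.0% of all genes. In DR worms *cyn-6*, *trap-2* and *manf-1* were higher in translated mRNA, at log2 ratios of 1.30 ± 0.069, 1.29 ± 0.037 and 1.02 ± 0.040 (SE), and *T24H7.2*, *hsp-90*, *ubxn-4*, *srpa-72* and *clpp-1* were lower, at -2.15 ± 0.042, -1.37 ± 0.030, -1.34 ± 0.034, -1.17 ± 0.047 and -1.06 ± 0.073. In DM worms *T24H7.2* and *T14G8.3* were lower, at -2.03 ± 0.042 and -1.02 ± 0.057. In AL worms *Y22D7AL.10* and *sec-61.B* were higher, at 1.18 ± 0.045 and 1.03 ± 0.051, and *hrdl-1*, *T24H7.2*, *ubc-6* and *ubxn-4* were lower, at -1.45 ± 0.041, -1.34 ± 0.042, -1.18 ± 0.047 and -1.14 ± 0.034. Between DM and DR worms, *fkb-3*, *dnj-7* and *pdi-6* were higher in total mRNA of DM worms, at 1.71 ± 0.091, 1.40 ± 0.056 and 1.16 ± 0.034, and *T24H7.2* and *tomm-22* were lower, at -1.40 ± 0.042 and -1.12 ± 0.049. In translated mRNA *fkb-3* was higher at 1.55 ± 0.091, and *T24H7.2*, *trap-2* and *tomm-22* were lower at -1.28 ± 0.042, -1.16 ± 0.037 and -1.07 ± 0.049 (16.9% of all genes were called at 2-fold). In DPAR *srpa-72* was higher at 1.41 ± 0.067 and *dnj-7* lower at -1.12 ± 0.079 (7.74% of all genes were called at 2-fold).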

How the data were processed

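RNA of whole worms was sequenced from total and translated mRNA with unstranded poly(A) libraries, 4 per group, which the study calls biological replicates for N2. For DM worms nothing states separate cultures, so p-values there measure only the spread between these libraries, which may be technical. Per the study's methods, the authors aligned reads with TopHat to WS220 (Ensembl 66) and counted them with HTSeq (0.6.1), and edgeR (3.0) and bcl2fastq (2.20) are named in their processing notes. The deposited values are a normalized read signal per gene, that is CPM with a composition factor, and 100% were whole reads within a tolerance of 0.05 reads. The count depth was 7960544 to 15658505 reads on genes.

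From these values, genes with a mean of at least 8 CPM were kept, log2(value + 0.5) was fitted for all 24 libraries and 6 groups with limma (3.58.1, R 4.3.3, trend), and p-values were adjusted (Benjamini-Hochberg) over 8345 genes. Fold changes are on the log2(value + 0.5) scale, which understates changes of low genes. DPAR is the interaction of pool and condition. Tests assumed plain CPM before the files were read, and the same test was kept. edgeR (4.0.16) and DESeq2 (1.42.0) on the recovered reads, pseudocounts, filters, 4 other scalings, replicate blocks and leaving out each library were alternatives, of which CPM of coding reads was chosen after seeing the data. On simulated data of 8345 genes, 100% of 200 genes changed by 1 on the log2 scale were recovered for DR against AL in total mRNA, with 6 false calls at the adjusted p and 0 at 2-fold, and for changes of 2 with 112 and 0. In the data far more genes differed in that comparison (80.0%), and changes below 1 were not simulated. These rates therefore do not carry over to the calls reported. Genes were matched to an annotation of Ensembl release 115, another build, so no coordinates are given, and 77 of 79 pathway genes and 35 of 35 markers matched. All 9 members are named, with list genes called at 2-fold (up to 4 per list and comparison), ire-1, pek-1, atf-6, atfs-1, dve-1 and ubl-5, and the 3 genes most alike to each member. Members and lists were chosen with earlier results of these data known.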

Additional observations from a re-analysis of the deposited data

Results flagged for a closer look

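In 1 of the 54 groups of 4 libraries checked, 1 library stood apart by Dixon's criterion (gap over range above 0.829), which chance does in about 1 in 20 groups. It was *enpl-1* in total mRNA of AL worms, where replicate 2 had 424 CPM, the nearest other library had 434 CPM, and the gap was 0.867 of the range.

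The DPAR of *enpl-1* between DR and AL worms was -1.15 (limma, adjusted p = 3.42e-23), the difference between conditions in its ratio of translated to total mRNA being tested as an interaction.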

How the results depend on the processing

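Of the 108 changes reported for the 9 genes, 97 passed the test. Over all alternatives for the 9 genes, 21 values lost the call, 14 gained it and 19 changed sign with a call on either side, and with a library left out 7 lost the call and 1 gained it. Counting all values, those past the test changed sign in 0 of 960 cases with a library left out and 9 of 1310 other cases, and those not past it in 1 of 120 (*xbp-1* in total mRNA of DR against AL worms without DR replicate 2, 0.0072) and 36 of 148. The cause of each was not tested.

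The number of the 9 genes called at 2-fold under plain CPM was 0 for DR against AL in total mRNA (1 as reported), 1 in translated mRNA (0), 2 for DM against AL in total mRNA (1), 1 in translated mRNA (0) and 1 for DPAR between DM and DR worms (0). In total mRNA of DM against AL worms it was also 2 with TMM on the genes kept, edgeR on recovered reads and CPM of coding reads, and in translated mRNA it was 2 with CPM of coding reads.

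Signs turned for *hsp-3* in translated mRNA of DM against AL worms, to 0.062 with median-ratio scaling, 0.29 under plain CPM, 0.088 with TMM on the genes kept, 0.088 with edgeR, 0.062 with DESeq2 and 0.30 as CPM of coding reads. Under plain CPM, *pdi-1* turned to -0.26 for translated against total mRNA in DR worms and 0.12 for translated mRNA of DM against AL worms, *hsp-4* to -0.052 in DPAR of DR against AL worms, and in DPAR of DM against AL worms *hsp-4* turned to 0.030, *pdi-1* to 0.040 and *xbp-1* to 0.16. In DPAR of DM against DR worms, *hsp-4* turned to 0.082 and *pdi-2* to 0.053. As CPM of coding reads, *pdi-1* turned to 0.13 in translated mRNA of DM against AL worms, and in DPAR of DM against AL worms *hsp-4* turned to 0.064, *pdi-1* to 0.074, *xbp-1* to 0.20 and *hsp-60* to 0.18.

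Same-numbered total and translated libraries of a condition did not deviate together (r between -0.0984 and 0.0822), so the numbers were not taken to pair samples. With a replicate block by lysate, the DPAR of *hsp-4* between DR and AL worms kept its value of 0.11 and missed the threshold (limma, adjusted p = 0.0501), and no other call or count changed with either replicate block. Depth did not limit the 9 genes, which had at least 929 reads in each library.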
